A study of Mus musculus with 12 samples.

Results

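The unfolded protein response genes examined here are Hspa5, Hsp90b1, Xbp1, Atf6, Manf, Creld2, Sdf2l1, Pdia4, Pdia6 and Herpud1. They were taken by name, as the rows of the deposited table that carry these symbols, and all 10 were found among its 13552 genes. They were followed across hearts of wild-type (WT) mice and of mice homozygous for the Bcl-xL S14A knock-in (KI), collected 9 h after transverse aortic constriction (TAC) or sham surgery.

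Secreted and membrane proteins are folded in the endoplasmic reticulum (ER) by chaperones and by enzymes that form disulfide bonds. When unfolded protein builds up there, the membrane sensors ATF6, IRE1 (gene Ern1) and PERK (gene Eif2ak3) set off the unfolded protein response. ATF6 is cut to release a transcription factor, IRE1 splices the Xbp1 mRNA so that it encodes another factor, and PERK slows translation and favours synthesis of ATF4. ATF6 and XBP1 switch on chaperones, folding enzymes and the machinery of ER-associated degradation, and in the heart this response has been studied above all in pressure overload and ischaemia.

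There were 4 groups of 3 male mice, labelled C57BL/6 and given as C57BL/6J in the study's methods, crossing the 2 genotypes with the 2 operations. TAC ties the aortic arch around a needle so that the left ventricle pumps against a higher pressure, and the sham operation leaves out the tie. The knock-in exchanges serine 14 of Bcl-xL (gene Bcl2l1) for alanine in every cell of the body, and its selection cassette was removed by a cross with CMV-Cre mice. The WT animals were bought in rather than named as littermates, and a point mutation cannot be checked in gene-level values. RNA of whole hearts was sequenced after poly(A) selection, and the deposited values were read as RPKM, in which reads are scaled by exon length and by the reads on genes of each heart. In such tissue, fewer cells of a type and less RNA per cell cannot be told apart.

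Depth ran from 23650507 to 32455266 reads on genes per heart, and all KI TAC hearts were sequenced more deeply (30298101 to 31677106) than all WT TAC hearts (25715548 to 29608754). The cardiomyocyte markers Myh6, Tnnt2, Tnni3, Actc1, Myl2, Ryr2 and Pln, all 7 in the table, summed to 12783 to 22936 RPKM over the 12 hearts. WT sham mouse 1 stood apart from the other sham mice of its genotype, with 32130697 reads against 23650507 and 24435556 and a mitochondrial share of 6.36% against 11.56% and 11.93%. The genes examined here rested on 101 reads (Sdf2l1, lowest heart) to 19738 reads (Herpud1, highest heart), and all 10 passed the filter of 1 RPKM in at least 3 mice. No single other gene, on either strand, shared more than 10.3% of the exon length of any of them (1810014B01Rik with Hsp90b1, which also shares 2.08% and 3.30% with 2 more genes). The intervals, standard errors (SE) and adjusted p-values below come from limma on log2(RPKM + 1), fitted to 11240 genes in all 12 mice with Benjamini-Hochberg adjustment over all of them and a threshold of 0.05. A log2 fold change on this scale understates the change of a low gene.

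The ER stress response element (ERSE), bound by ATF6 with NF-Y, reads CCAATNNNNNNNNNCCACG, and ERSE-II reads ATTGGNCCACG. RefSeq promoter windows of GRCm38.p6, from 250 bases before to 50 bases after a start site, were available for 8 of the 10 genes (Hspa5, Hsp90b1, Xbp1, Creld2, Sdf2l1, Pdia4, Pdia6 and Herpud1) and were searched on both strands. Atf6 and Manf had no window. ERSE stood in 39 of 32851 windows (0.119%) and in the windows of 4 of these 8 genes. ERSE-II stood in 12 windows (0.0365%), among them that of Herpud1. The element TGACGTGG (UPRE, bound by ATF6 and XBP1) stood in 222 windows (0.676%) and in none of the 8. No window of Xbp1, Sdf2l1 or Pdia4 held ERSE, ERSE-II or UPRE in these letters. The genes were chosen as members of this response, so the share of them with ERSE is no result of these hearts. The matches are shown as a description of the genes. In WT hearts after TAC none of the 4 with ERSE passed the threshold given above, and Herpud1, with ERSE-II, fell. Of those without the elements, Xbp1 and Sdf2l1 rose and Pdia4 did not pass. Each line gives 29 bases in the direction of the gene, with the element in capitals, and where the element lies on the opposite strand the capitals show its reverse complement. Distances are from the RefSeq start, which for Hspa5 lies 120 bases after the GENCODE gene start given further on, so that its element falls inside those gene bounds.
Hspa5, chr2:34772020-34772048, plus strand, 65 to 47 bases before the start: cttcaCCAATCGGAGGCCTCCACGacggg
Hsp90b1, chr10:86705633-86705661, minus strand, 212 to 194 bases before the start: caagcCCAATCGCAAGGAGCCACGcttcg
Hsp90b1, chr10:86705528-86705556, minus strand, 107 to 89 bases before the start, element on the opposite strand: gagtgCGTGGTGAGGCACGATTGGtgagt
Creld2, chr15:88819515-88819543, plus strand, 126 to 108 bases before the start, element on the opposite strand: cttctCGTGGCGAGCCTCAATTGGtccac
Pdia6, chr12:17266486-17266514, plus strand, 98 to 80 bases before the start: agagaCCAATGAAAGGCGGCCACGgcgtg
Herpud1, chr8:94386368-94386396, plus strand, 52 to 42 bases before the start, ERSE-II: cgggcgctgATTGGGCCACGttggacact

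Xbp1 (ENSMUSG00000020484, chromosome 11, 5520659 to 5525893 of GRCm38) encodes the transcription factor that IRE1 activates. It was 26.8, 18.6 and 19.5 RPKM in WT sham mice 1, 2 and 3 and 45.8, 39.7 and 27.3 RPKM in WT TAC mice 7, 9 and 10. In KI hearts it was 22.7, 20.6 and 17.4 RPKM after sham (mice 1, 2 and 3) and 27.6, 25.8 and 26.7 RPKM after TAC (mice 5, 6 and 7). Within each genotype every TAC heart lay above every sham heart, by a narrow margin for WT TAC mouse 10 over WT sham mouse 1. The log2 fold change was 0.76 in WT hearts (SE 0.21, limma adjusted p = 0.032), a rise, and 0.39 in KI hearts (SE 0.21, limma adjusted p = 0.19), which did not pass. The WT call was kept under 12 of 18 alternatives, with an adjusted p of up to 0.15 in limma. Averaged over the genotypes, Xbp1 rose by 0.57 (SE 0.15, limma adjusted p = 0.0099), and this averaged call was kept under all 17 alternatives. The values count the whole gene, so spliced and unspliced Xbp1 mRNA are not separated.

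Atf6 (ENSMUSG00000026663, chromosome 1, 170704674 to 170867771) encodes the sensor that becomes a transcription factor when cut. It was 13.5, 18.9 and 23.0 RPKM in WT sham and 17.1, 20.9 and 24.4 RPKM in WT TAC hearts, in the order of mice used above. It was 18.1, 11.9 and 17.7 RPKM in KI sham and 14.1, 17.3 and 19.3 RPKM in KI TAC hearts. The 4 groups overlapped throughout. The log2 fold change after TAC was 0.18 (95% interval -0.31 to 0.67) in WT hearts and 0.09 (95% interval -0.40 to 0.58) in KI hearts, and its mRNA was not called in any comparison. Cleavage of the protein is not seen in these data.

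Hspa5 (ENSMUSG00000026864, chromosome 2, 34771970 to 34777547) encodes BiP, the main Hsp70 chaperone of the ER, which also holds the sensors inactive. It was 82.0, 56.9 and 47.2 RPKM in WT sham and 126, 77.3 and 86.3 RPKM in WT TAC hearts. KI sham hearts had 71.5, 61.0 and 56.4 RPKM and KI TAC hearts 67.0, 81.9 and 83.6 RPKM. WT TAC mouse 7 was the highest of all 12, while WT sham mouse 1 exceeded WT TAC mouse 9. The log2 fold change was 0.63 in WT (SE 0.24, limma adjusted p = 0.10) and 0.30 in KI hearts (SE 0.24, limma adjusted p = 0.39), neither of which passed. Averaged over genotypes it rose by 0.47 (SE 0.17, limma adjusted p = 0.049), a call close to the threshold that 10 of 17 alternatives kept. The WT difference passed under 1 of 18 alternatives, without WT sham mouse 1 (0.85, limma adjusted p = 0.046), and was lowest without WT TAC mouse 7 (0.43, limma adjusted p = 0.35).

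Hsp90b1 (ENSMUSG00000020048, chromosome 10, 86690209 to 86705509) encodes GRP94, the Hsp90 chaperone of the ER. It was 11.1, 15.6 and 15.8 RPKM in WT sham and 26.7, 15.9 and 29.3 RPKM in WT TAC hearts. Sham-operated KI hearts had 17.1, 19.9 and 16.5 RPKM and KI TAC hearts 16.6, 21.2 and 15.2 RPKM. WT TAC mice 7 and 10 stood well above all other hearts, while WT TAC mouse 9 was level with the sham hearts. The log2 fold change was 0.69 in WT hearts (SE 0.23, limma adjusted p = 0.068) and -0.02 in KI hearts (95% interval -0.51 to 0.47, limma adjusted p = 0.96). Over 18 alternatives the WT difference ran from 0.53 without WT TAC mouse 10 (limma adjusted p = 0.17) to 0.95 without WT TAC mouse 9 (limma adjusted p = 0.016), and it passed only under the latter. In sham hearts every KI value lay above every WT value, a difference of 0.32 (95% interval -0.17 to 0.82) that was not called.

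Manf, Creld2 and Sdf2l1 encode smaller proteins of the ER lumen. Manf (ENSMUSG00000032575, chromosome 9, 106838312 to 106891979), a secreted factor that binds BiP, was 6.34, 3.05 and 3.80 RPKM in WT sham and 15.2, 7.43 and 8.19 RPKM in WT TAC hearts. In KI hearts it was 4.76, 4.46 and 3.24 RPKM after sham and 4.16, 4.44 and 5.01 RPKM after TAC. Every WT TAC heart was above the other 9 hearts, and WT TAC mouse 7 was the highest. Manf rose in WT hearts by a log2 fold change of 1.04 (SE 0.26, limma adjusted p = 0.019). In KI hearts the difference was 0.11 (95% interval -0.44 to 0.67, limma adjusted p = 0.78). Among TAC hearts Manf was lower in KI than in WT by a log2 fold change of -0.96 (SE 0.26, limma adjusted p = 0.032).

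Sdf2l1 (ENSMUSG00000022769, chromosome 16, 17130138 to 17132383), a partner of the BiP cochaperones, was 6.94, 4.01 and 4.21 RPKM in WT sham and 22.7, 7.29 and 9.95 RPKM in WT TAC hearts. Among KI hearts the sham group had 3.73, 5.77 and 3.89 RPKM and the TAC group 5.39, 3.90 and 5.04 RPKM. The WT TAC hearts were again the 3 highest of 12, WT TAC mouse 7 by far, and WT TAC mouse 9 was only just above WT sham mouse 1. Sdf2l1 rose in WT hearts by 1.13 (SE 0.32, limma adjusted p = 0.035) and differed by 0.09 in KI hearts (95% interval -0.59 to 0.77, limma adjusted p = 0.86). In KI TAC against WT TAC hearts it was lower by a log2 fold change of -1.17 (SE 0.32, limma adjusted p = 0.034). Without WT TAC mouse 7 the WT change was 0.69 (limma adjusted p = 0.13) for Sdf2l1 and 0.75 (limma adjusted p = 0.089) for Manf, and no longer passed for either.

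Creld2 (ENSMUSG00000023272, chromosome 15, 88819646 to 88826683), an ER protein with disulfide-exchange motifs, was 8.20, 5.23 and 5.39 RPKM in WT sham and 15.1, 7.74 and 8.02 RPKM in WT TAC hearts. KI sham hearts had 6.44, 8.59 and 6.18 RPKM and KI TAC hearts 6.14, 5.08 and 7.22 RPKM. WT TAC mouse 7 was alone at the top, and the other WT TAC hearts lay just below WT sham mouse 1. The log2 fold change was 0.60 in WT (SE 0.24, limma adjusted p = 0.13) and -0.17 in KI hearts (SE 0.24, limma adjusted p = 0.64), and neither passed. Every KI TAC heart was below every WT TAC heart, a difference of -0.61 (SE 0.24, limma adjusted p = 0.11) that was not called.

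**Figure D1:**
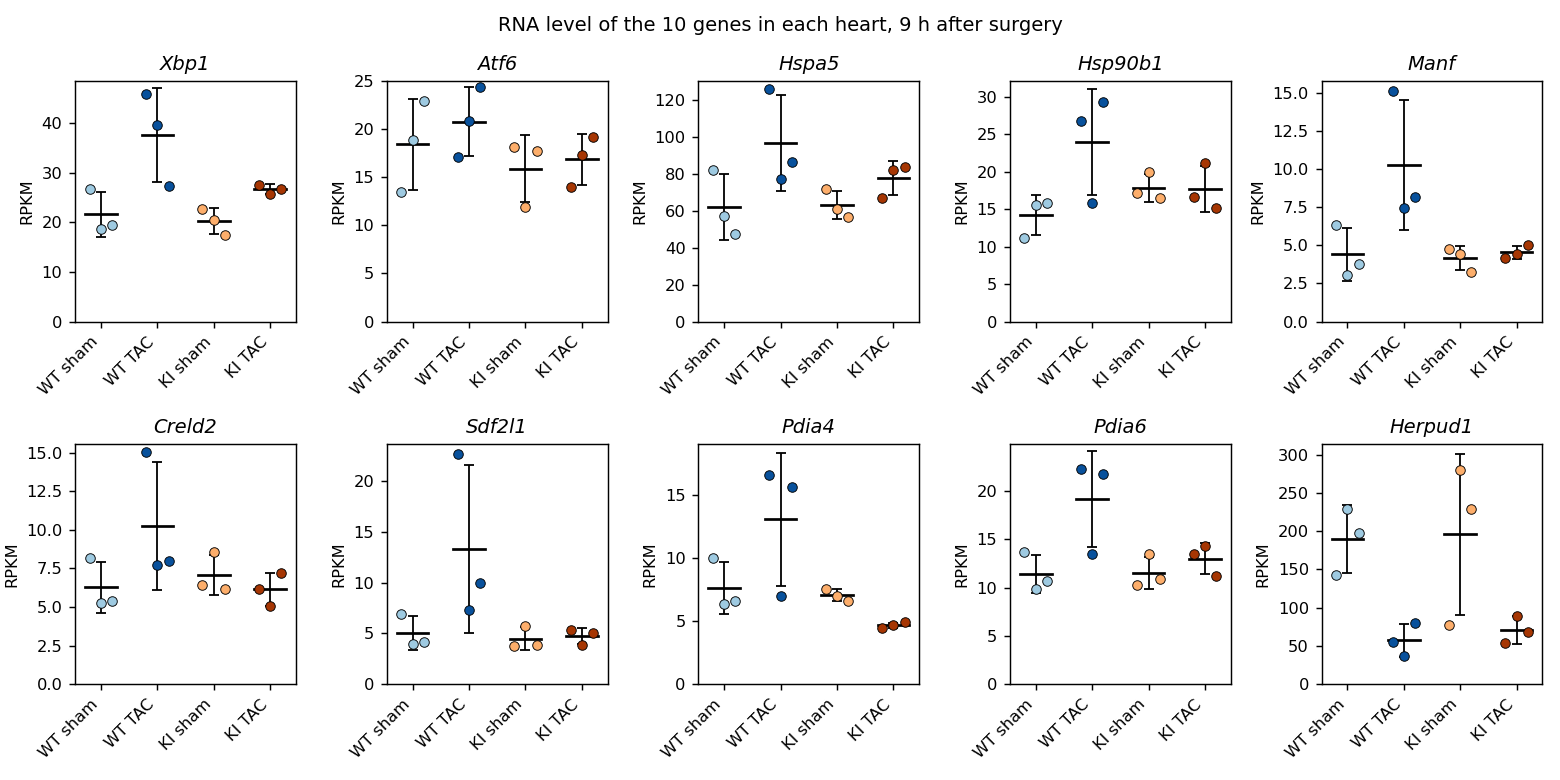
RNA level in RPKM (linear axes from 0) of each gene in each of 12 hearts, 3 mice a group, with points for mice in the order of their numbers and bars for the group mean and SD. The WT TAC hearts hold the 3 highest values of Manf and of Sdf2l1, whereas Herpud1 was at 36.4 to 89.6 RPKM in the 6 TAC hearts.

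Pdia4 (ENSMUSG00000025823, chromosome 6, 47796141 to 47813430) and Pdia6 (ENSMUSG00000020571, chromosome 12, 17266545 to 17284770) encode protein disulfide isomerases, which form and reshuffle disulfide bonds in the ER. Pdia4 was 10.0, 6.35 and 6.57 RPKM in WT sham and 16.6, 6.98 and 15.6 RPKM in WT TAC hearts. Sham-operated KI hearts had 7.54, 6.99 and 6.60 RPKM and KI TAC hearts 4.47, 4.65 and 4.89 RPKM. The 3 KI TAC hearts were the lowest of all 12 and close to each other, and 2 of the 3 WT TAC hearts were the highest. Pdia4 differed between the genotypes after TAC, being lower in KI by a log2 fold change of -1.23 (SE 0.26, limma adjusted p = 0.014). The parts of this difference did not pass alone, with 0.64 after TAC in WT (SE 0.26, limma adjusted p = 0.12) and -0.50 after TAC in KI hearts (SE 0.26, limma adjusted p = 0.17). Over 18 alternatives the WT difference ran from 0.44 without WT TAC mouse 7 (limma adjusted p = 0.39) to 1.01 without WT TAC mouse 9 (limma adjusted p = 0.0078). Only the latter passed, and as mouse 9 was the lowest of its group, leaving it out had to raise the difference.

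Pdia6 was 13.7, 9.89 and 10.7 RPKM in WT sham and 22.3, 13.5 and 21.8 RPKM in WT TAC hearts. Among KI hearts the sham group had 10.3, 13.4 and 10.9 RPKM and the TAC group 13.5, 14.3 and 11.2 RPKM. As with Pdia4 and Hsp90b1, WT TAC mice 7 and 10 were high and mouse 9 was among the sham values. The WT difference was 0.68 (SE 0.21, limma adjusted p = 0.0502), just short of the threshold, and the KI difference was 0.16 (95% interval -0.29 to 0.61, limma adjusted p = 0.61). Averaged over genotypes Pdia6 rose by 0.42 (SE 0.15, limma adjusted p = 0.044), which 9 of 17 alternatives kept.

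Herpud1 (ENSMUSG00000031770, chromosome 8, 94386438 to 94395377) encodes HERP, an ER membrane protein that organises ER-associated degradation. It had the highest mean of the 10 genes, 128 RPKM over all hearts, and in WT hearts its TAC difference had the opposite sign to those of the other 9. It was 143, 230 and 197 RPKM in WT sham and 55.8, 36.4 and 79.5 RPKM in WT TAC hearts. KI sham hearts had 78.0, 280 and 229 RPKM and KI TAC hearts 54.1, 89.6 and 68.6 RPKM. All TAC hearts were low in both genotypes, and KI sham mouse 1 lay among them, below KI TAC mouse 6. Herpud1 fell by 1.76 on the log2 scale in WT hearts (SE 0.41, limma adjusted p = 0.015) and by 1.29 in KI hearts (SE 0.41, limma adjusted p = 0.037). Averaged over genotypes it fell by 1.52 (SE 0.29, limma adjusted p = 0.0016), a call kept under all 17 alternatives. The difference between KI TAC and WT TAC hearts was 0.34 (95% interval -0.55 to 1.23, limma adjusted p = 0.60). In WT hearts the call was lost without sham mouse 2 or 3 or without TAC mouse 9, with log2 fold changes between -1.71 and -1.47 and adjusted p between 0.053 and 0.062 from limma. In KI hearts it was lost without sham mouse 2 or 3 or without TAC mouse 5 or 7, with log2 fold changes between -1.29 and -0.94 and adjusted p between 0.072 and 0.14 from limma.

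In WT hearts, then, 3 of 10 genes rose after TAC (Xbp1, Manf and Sdf2l1), where 6.96% of all genes tested were called higher, and 1 fell (Herpud1), where 4.60% were called lower. The WT log2 fold change was above 0 for 9 of 10, with a median of 0.66 against 0.04 over all genes tested. Of the 6 that did not pass, 5 had an unadjusted p under 0.05 in limma. The share of all genes at that limit was not counted here, so nothing is read from this count. Hsp90b1, Xbp1, Manf and Sdf2l1 did not overlap between WT TAC and WT sham hearts and were higher, as were 20.0% of all genes, and Herpud1 was lower, as were 15.0%. An exact permutation test of 3 mice against 3 gave its smallest two-sided p, 0.1, for these 5. The count of 4 calls became 0 without WT sham mouse 2 or without WT sham mouse 3, 1 without WT TAC mouse 7 and 6 without WT sham mouse 1. It was 1 (Herpud1) when only the WT groups were fitted.

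In KI hearts none of the 10 rose, where 8.57% of all genes were called higher, and Herpud1 fell, where 14.7% were called lower. Their median log2 fold change was 0.09 against -0.10 over all genes. Relative to that shift of all genes, Xbp1 differed by 0.49, Hspa5 by 0.40, Hsp90b1 by 0.08, Pdia4 by -0.40 and Herpud1 by -1.19. Xbp1 was the only one of the 10 without overlap and higher (13.6% of all genes) and Pdia4 the only one without overlap and lower (24.7%). Scaling each heart by its median ratio to the others moved the median of all genes from -0.10 to 0.03, turned Hsp90b1 from -0.02 to 0.14 and ended the call of Herpud1 (-1.13, limma adjusted p = 0.064). Under that scaling 55.0% of all KI calls were higher, against 36.8% before. In WT hearts the same share was 50.2% against 60.2%.

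Among TAC hearts, 3 of the 10 were lower in KI than in WT (Manf, Sdf2l1 and Pdia4), where 8.13% of all genes were called lower, and none was higher, where 2.92% were. The median difference was -0.47 against -0.12 over all genes, and relative to that shift Pdia4 differed by -1.10, Sdf2l1 by -1.05, Manf by -0.84 and Creld2 by -0.49, while the other 6 lay between -0.38 (Pdia6) and 0.46 (Herpud1). Pdia4, Sdf2l1, Manf and Creld2 did not overlap between the groups and were lower, as were 19.4% of all genes, while none was higher, as were 10.1%. The smallest p of the exact permutation test, 0.1, was reached by these 4. With median-ratio scaling, Pdia4 alone was called, 58.6% of all calls were higher against 26.4% before, and the median of all genes was 0.03. Leaving out WT TAC mouse 7 or KI TAC mouse 6 took the count of 3 to 0, and leaving out KI TAC mouse 5 took it to 1. It was also 0 when only the TAC groups were fitted.

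Between sham hearts of the genotypes none of the 10 was called by limma, none had an unadjusted p under 0.05, and limma-voom on recovered reads called none, with 0.0178% of all genes called. The differences lay between -0.19 (Atf6) and 0.32 (Hsp90b1), and Hsp90b1 was the only one without overlap and higher, as were 2.08% of all genes, with 1.19% lower. The interaction term compares the TAC effect of KI hearts with that of WT hearts. No member passed in limma or in limma-voom on recovered reads, and 0.00% of all genes were called. At an unadjusted p under 0.05 the interaction was below 0 for 5 of 10 (Pdia4, Manf, Sdf2l1, Creld2 and Hsp90b1), as it was for 11.0% of all genes, and above 0 for none, against 3.86%. Pdia4 had the lowest p, with an interaction of -1.15 (95% interval -1.93 to -0.36, unadjusted p = 0.0074 and limma adjusted p = 0.20); over 17 alternatives it ran from -1.51 to -0.94 with adjusted p from 0.015 to 0.46 in limma and passed under 1, without WT TAC mouse 9. The median interaction of the 10 was -0.61 against -0.13 over all genes, and the comparisons named above share groups of mice, so they are not independent. Over both genotypes together TAC hearts were higher for 4 of 10 (Hspa5, Xbp1, Manf and Pdia6; 14.1% of all genes) and lower for Herpud1 (17.0% of all genes).

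**Figure D2:**
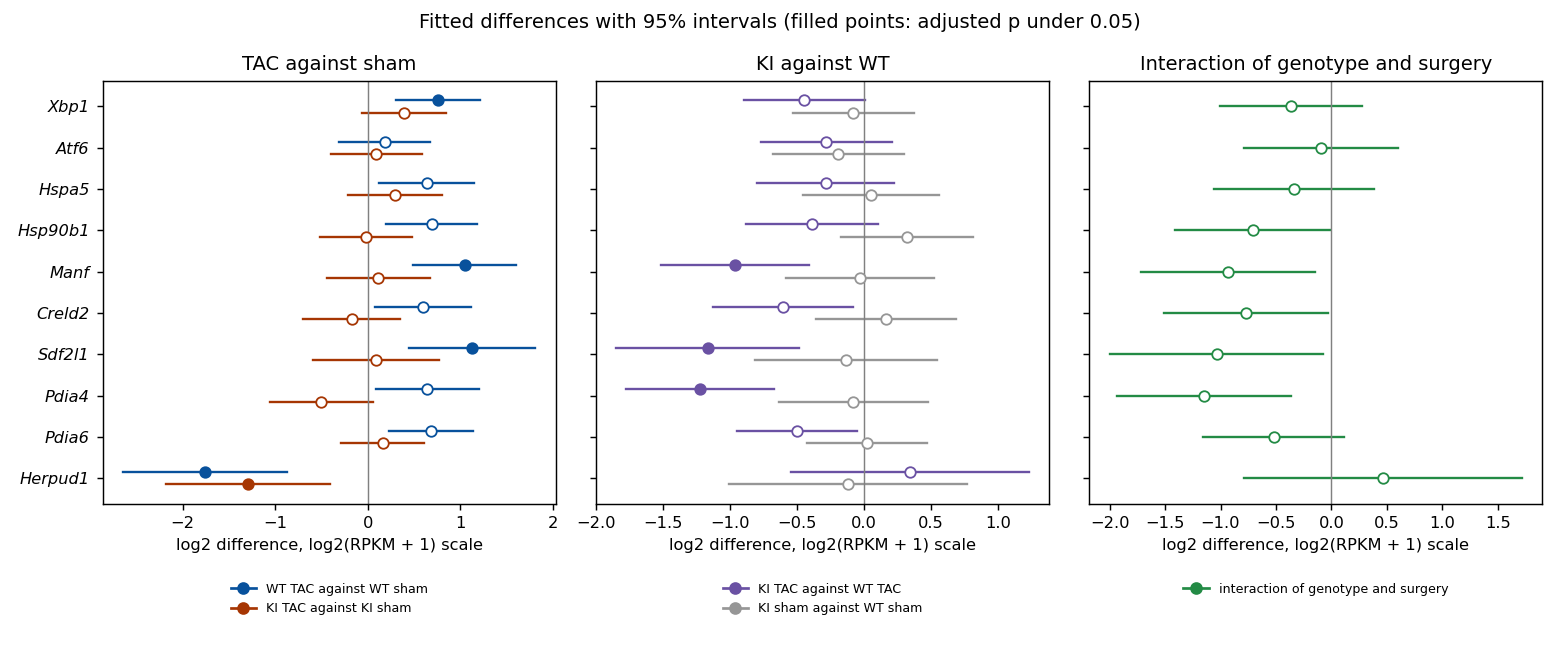
Fitted log2 differences on the log2(RPKM + 1) scale with 95% intervals from limma, for TAC against sham in each genotype (left), KI against WT in TAC and in sham hearts (middle), and the interaction (right), from all 12 mice. Filled points passed an adjusted p of 0.05, which no interaction and no sham difference did, and 9 of 10 points lie above 0 in WT hearts after TAC.

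The 3 WT TAC hearts differed among themselves. WT TAC mouse 7 was the highest of its group for 7 of the 10 genes and mouse 9 the lowest for 8. Over all genes mouse 9 also had the lowest median of the group, 3.39 RPKM, against 3.70 in mouse 7 and 4.16 in mouse 10. Among WT sham hearts mouse 1 was the highest for 7 (Hspa5, Xbp1, Manf, Creld2, Sdf2l1, Pdia4 and Pdia6) and the lowest for the other 3. Such ranks were not counted over all genes. Over the 12 mice the 7 chaperones and folding enzymes of the lumen (Hspa5, Hsp90b1, Manf, Creld2, Sdf2l1, Pdia4 and Pdia6) had pairwise Pearson correlations of log2(RPKM + 1) from 0.41 (Hsp90b1 with Creld2) to 0.95 (Manf with Sdf2l1), with a median of 0.75 over 21 pairs. Herpud1 had correlations from -0.84 to -0.11 with the other 9. The points share their library, depth and group. The genes most like Hspa5 over the 12 mice were Memo1 (r = 0.91), Bhlhe40 (0.90), Ankrd23 (0.90), Arf4 (0.90) and Slc11a2 (0.88).

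Some markers moved with these differences between mice. The fibroblast markers Col1a1, Col1a2, Col3a1, Pdgfra, Dcn, Lum and Tcf21, all 7 in the table, summed to 320 RPKM in WT TAC mouse 7, 147 in mouse 9 and 760 in mouse 10, so that mouse 9 was the lowest, as it was for the 7 genes of the ER lumen. The lumenal genes other than Hsp90b1 were highest in mouse 7 rather than mouse 10. Col1a1 was 188, 67.4 and 461 RPKM of these sums, and Dcn ran otherwise, at 36.8, 43.5 and 43.3 RPKM. The sums were 122 to 197 RPKM in WT sham, 148 to 256 in KI sham and 101 to 183 in KI TAC hearts. No fibroblast marker was called in WT TAC against WT sham or in KI TAC against WT TAC hearts, where the median differences were 0.58 and -1.12. Of 6 macrophage markers 2 rose in WT hearts (Cd68 and Adgre1) and 2 were lower in KI among TAC hearts (Adgre1 and Csf1r), and their sums were 74.7 to 134 RPKM in WT TAC and 78.3 to 92.4 RPKM in KI TAC hearts. Of the 7 cardiomyocyte markers Myh6 fell in WT hearts, with a list median of -0.50, and Tnni3 and Myl2 were higher in KI among TAC hearts, with a median of 0.65. The cardiomyocyte markers Actc1 (-0.24), Ryr2 (-0.20) and Pln (-0.28) lay below 0 between TAC hearts and were not called. The pericyte marker Cspg4, 1 of 5 markers of smooth muscle and pericytes, rose in WT hearts and was lower in KI among TAC hearts. Of all genes 6.96% were called higher and 4.60% lower in WT hearts, and 2.92% higher and 8.13% lower in KI among TAC hearts. Atrial markers were represented only by Nppa, which is also a hypertrophy marker, at 483, 207 and 758 RPKM in WT TAC and 57.8 to 195 RPKM in KI TAC hearts. Plasma cells, which hold much ER, could be read only from 2 of 6 markers of B and plasma cells, and these went different ways. Sdc1 was 5.46 to 6.07 RPKM in WT TAC hearts and at most 4.65 RPKM in any other, whereas Mzb1 was 0.347 to 0.864 RPKM in WT TAC and 0.487 to 1.11 RPKM in WT sham hearts. Sums of 3 of 5 neutrophil markers were 0.395 to 1.27 RPKM after sham and 3.69 to 20.3 RPKM after TAC. The part of these cells in the results was not tested.

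Glucocorticoid-responsive genes (Fkbp5, Tsc22d3, Per1, Zbtb16, Sgk1, Mt2, Cdkn1a and Errfi1, all 8 in the table) summed to 380 to 575 RPKM in KI TAC hearts and to 79.2, 253 and 65.5 RPKM in WT TAC mice 7, 9 and 10. WT TAC mouse 9, the lowest of the WT TAC hearts for all 7 lumenal genes, was nearest to the KI TAC hearts in this sum. Mt2 and Cdkn1a carried much of it, at 146 to 254 and 65.7 to 117 RPKM in KI TAC hearts and at 69.3 and 67.4 RPKM in WT TAC mouse 9. Of the 8 genes 5 rose in KI hearts after TAC, where 8.57% of all genes were called higher, and 7 were higher in KI among TAC hearts, where 2.92% were, all but Zbtb16. In WT hearts after TAC 1 rose and 1 fell, against 6.96% and 4.60% of all genes, with a list median of -0.22. Tsc22d3, among the 7, was 9.48 to 13.1 RPKM in WT TAC and 16.6 to 30.2 RPKM in WT sham hearts. Its 18.9 to 25.5 RPKM in KI TAC hearts lay within the 17.0 to 33.1 RPKM of KI sham hearts. Among sham hearts, WT mouse 1 (79.3 RPKM) and KI mouse 1 (88.5 RPKM) were the lowest of their groups, against 131 to 142 RPKM in the others, and these were also the sham hearts with the least Herpud1. The KI TAC hearts had 54.1 to 89.6 RPKM of Herpud1 beside the highest sums. Their part in the results was not tested.

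**Figure D3:**
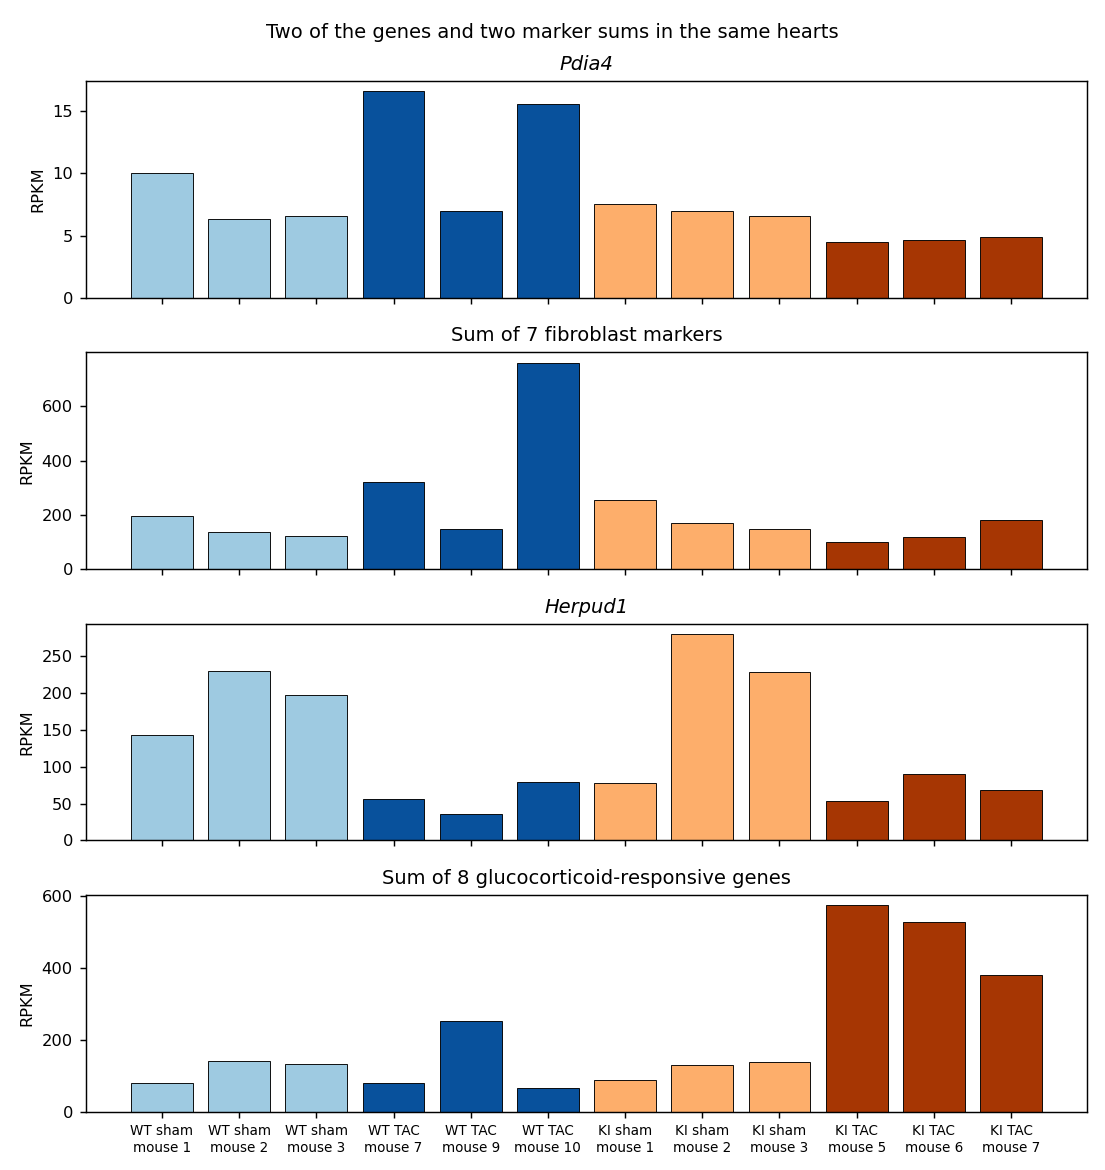
RPKM per heart (bars from 0) of Pdia4, the summed fibroblast markers, Herpud1 and the summed glucocorticoid-responsive genes, in the 12 mice by number and group. WT TAC mice 7 and 10 are high and mouse 9 low in the upper pair of panels, and the 3 KI TAC hearts have the highest glucocorticoid-responsive sums, 380 to 575 RPKM, at 54.1 to 89.6 RPKM of Herpud1.

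The other genes of the pathway were read from 6 lists of ER genes, of which 78 genes besides the 10 were tested. In WT hearts 11 of the 78 (14.1%, against 6.96% of all genes) rose and 2 (2.56%, against 4.60%) fell after TAC, with a median of 0.24 against 0.04 over all genes. In KI hearts 5 (6.41%, against 8.57%) rose and 2 (2.56%, against 14.7%) fell, with a median of 0.08 against -0.10. In KI TAC against WT TAC hearts 2 (2.56%, against 2.92%) were higher and 5 (6.41%, against 8.13%) lower, with a median of -0.14 against -0.12. Apart from the rise in WT hearts these shares were below those of all genes. Asns, which passed the filter only through TAC hearts, is among those called higher in both genotypes, and without it 10 of 77 (13.0%) rose in WT and 4 of 77 (5.19%) in KI hearts. The share in KI hearts turned with the scaling, since 15 of the 78 (19.2%) rose under median-ratio scaling, against 13.8% of all genes, and 15 rose under quantile normalization, against 12.1%. Without WT TAC mouse 7 or without WT sham mouse 2, 3 rose in WT hearts, and without WT sham mouse 3, 4 did. The 5 genes lower in KI among TAC hearts became 1 when WT TAC mouse 7 was left out and 10 when mouse 9 was, and in the KI TAC group 2 when mouse 6 was left out and 12 when mouse 7 was.

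Among the sensors and transcription factors, the sensor genes Ern1 and Eif2ak3 were not called in any comparison. Ern1 was 4.73 to 6.20 RPKM in WT sham and 4.52 to 5.22 RPKM in WT TAC hearts, and the WT log2 fold change was -0.16 (limma adjusted p = 0.55). Eif2ak3 differed by 0.26 (limma adjusted p = 0.22). Of the 8 genes of this list besides Xbp1 and Atf6, 2 (25%, against 6.96% of all genes) rose in WT hearts, namely Creb3l1 (1.07) and Creb3l2 (0.63), membrane-bound relatives of ATF6, and none was called in KI hearts. The count of 2 was 0 without WT sham mouse 2 or 3 or without WT TAC mouse 7, and it was 1 under 5 of the 6 alternatives that kept all mice. Creb3l2 (-1.05, limma adjusted p = 0.0079) and Atf6b (-0.76, limma adjusted p = 0.040), the paralogue of Atf6, were lower in KI among TAC hearts, 25% of the list against 8.13% of all genes. Atf6b was 42.1, 28.9 and 26.0 RPKM in WT TAC and 20.1, 13.2 and 22.9 RPKM in KI TAC hearts, with no overlap. The median of the 8 genes was 0.35 for WT and -0.03 for KI.

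Among the 11 other chaperones and cochaperones none rose, and Cdnf, the paralogue of Manf, fell in both genotypes (9.09% of the list, against 4.60% of all genes in WT and 14.7% in KI hearts), by 0.85 in WT (limma adjusted p = 0.030) and 0.71 in KI hearts (limma adjusted p = 0.040). Cdnf was 4.46 to 5.27 RPKM in WT sham and 1.52 to 3.69 RPKM in WT TAC hearts. Manf and Cdnf, which encode related proteins, thus went opposite ways in WT hearts. Hyou1, the ER chaperone GRP170, was 13.6, 8.66 and 7.15 RPKM in WT TAC and 4.32, 3.93 and 5.58 RPKM in KI TAC hearts. It was lower in the latter (-0.91, limma adjusted p = 0.028), 9.09% of the list and near the 8.13% of all genes called lower. Calr and Canx, the lectin chaperones calreticulin and calnexin, did not pass, with WT differences of 0.41 (adjusted p = 0.33) and 0.14 (adjusted p = 0.67) in limma. WT hearts had a list median of 0.23, and KI hearts one of -0.07.

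Of 12 other folding enzymes, 1 (8.33%, against 6.96% of all genes) rose in WT hearts, Pdia3, the isomerase that works with calnexin and calreticulin (0.74, limma adjusted p = 0.030), and none was called in KI hearts. Pdia3 was 28.9, 18.0 and 30.1 RPKM in WT TAC and 12.7 to 16.1 RPKM in WT sham hearts, and mouse 9 was again the lowest of the WT TAC hearts. The count of 1 was 0 without any 1 of the WT mice other than TAC mouse 9, 3 without that mouse and 2 without KI sham mouse 1. Pdia5 was lower in KI among TAC hearts (-0.90, limma adjusted p = 0.023), 8.33% of the list and near the 8.13% of all genes called lower. Of 17 other genes of ER-associated degradation, Edem1, which takes misfolded glycoproteins out of folding, rose in WT hearts (0.64, limma adjusted p = 0.021), and Ube2j1, a ubiquitin-conjugating enzyme, rose in KI hearts (0.46, limma adjusted p = 0.037), in each case 5.88% of the list, against 6.96% and 8.57% of all genes. In WT hearts this count of 1 was 0 without any 1 of the sham mice or without TAC mouse 7, and 2 without TAC mouse 10. None of the 17 fell with Herpud1, and their medians were 0.12 and 0.09.

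The 20 genes tested of the translocon and of traffic between ER and Golgi held the most calls of the 6 lists in WT hearts after TAC. There 6 rose (30%, against 6.96% of all genes), none fell (against 4.60%), and the median was 0.56. By share the 8 sensors and transcription factors were near them, at 25%. They were Spcs3, a subunit of the signal peptidase, the KDEL receptors Kdelr3 (1.12) and Kdelr2 (0.72), which return BiP and other ER proteins from the Golgi, Arfgap3 (0.83), the channel subunit Sec61a1 (0.82) and Ssr1 (0.66). Spcs3 was 9.74, 8.38 and 8.77 RPKM in WT sham and 44.3, 36.9 and 30.3 RPKM in WT TAC hearts, a rise of 1.92 (SE 0.18, limma adjusted p = 5.7e-05). In KI hearts it was 11.0, 8.42 and 8.51 RPKM after sham and 16.6, 19.6 and 20.4 RPKM after TAC, a rise of 0.95 (SE 0.18, limma adjusted p = 0.0023), and KI TAC hearts were lower than WT TAC hearts by a log2 fold change of -0.93 (limma adjusted p = 0.0094). Its interaction was -0.97 (unadjusted p = 0.0019, limma adjusted p = 0.15). Spcs3 was the only gene of the list called between TAC hearts, 5% of it against 8.13% of all genes called lower. The other 19 genes were not called in KI hearts after TAC, where the list's median was 0.17. Under median-ratio scaling 5 of all 20, Spcs3 included, rose there, where 13.8% of all genes were called higher. The count of 6 was 3 without WT TAC mouse 7 and 3 without WT sham mouse 2.

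The PERK-CHOP arm, which holds ATF4 and its targets, was read from 10 genes. In WT hearts Asns, asparagine synthetase, was called higher (0.62, limma adjusted p = 0.046) and Chac1 fell (-1.39, limma adjusted p = 0.017). Asns had 0.344 to 0.785 RPKM in the 6 sham hearts and passed the filter only through TAC hearts, so its calls in both genotypes support nothing. Without Asns, none of the other 9 rose in WT hearts (against 6.96% of all genes), and Chac1 was the only one that fell (11.1%, against 4.60%). In KI hearts 2 of these 9 (22.2%, against 8.57% of all genes) rose and 1 (11.1%, against 14.7%) fell, namely Ppp1r15a (2.33), which encodes GADD34, and Atf4 (1.78) on the one side and Chac1 (-1.56) on the other. Asns was called there too (0.82). Atf4 was 28.5, 36.8 and 21.0 RPKM in WT TAC and 95.7, 46.9 and 51.7 RPKM in KI TAC hearts, a higher level in KI (1.10, limma adjusted p = 0.021). Ppp1r15a was 6.63, 10.8 and 4.98 RPKM in WT TAC and 35.1, 19.2 and 23.9 RPKM in KI TAC hearts, also higher in KI (1.69, limma adjusted p = 0.0055). Ddit3, which encodes CHOP, was 3.06 to 5.44 RPKM over all 12 hearts and differed by -0.13 in WT (limma adjusted p = 0.68) and -0.18 in KI hearts (limma adjusted p = 0.49). The list's median was 0.08 in WT and 0.29 in KI hearts.

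**Figure D4:**
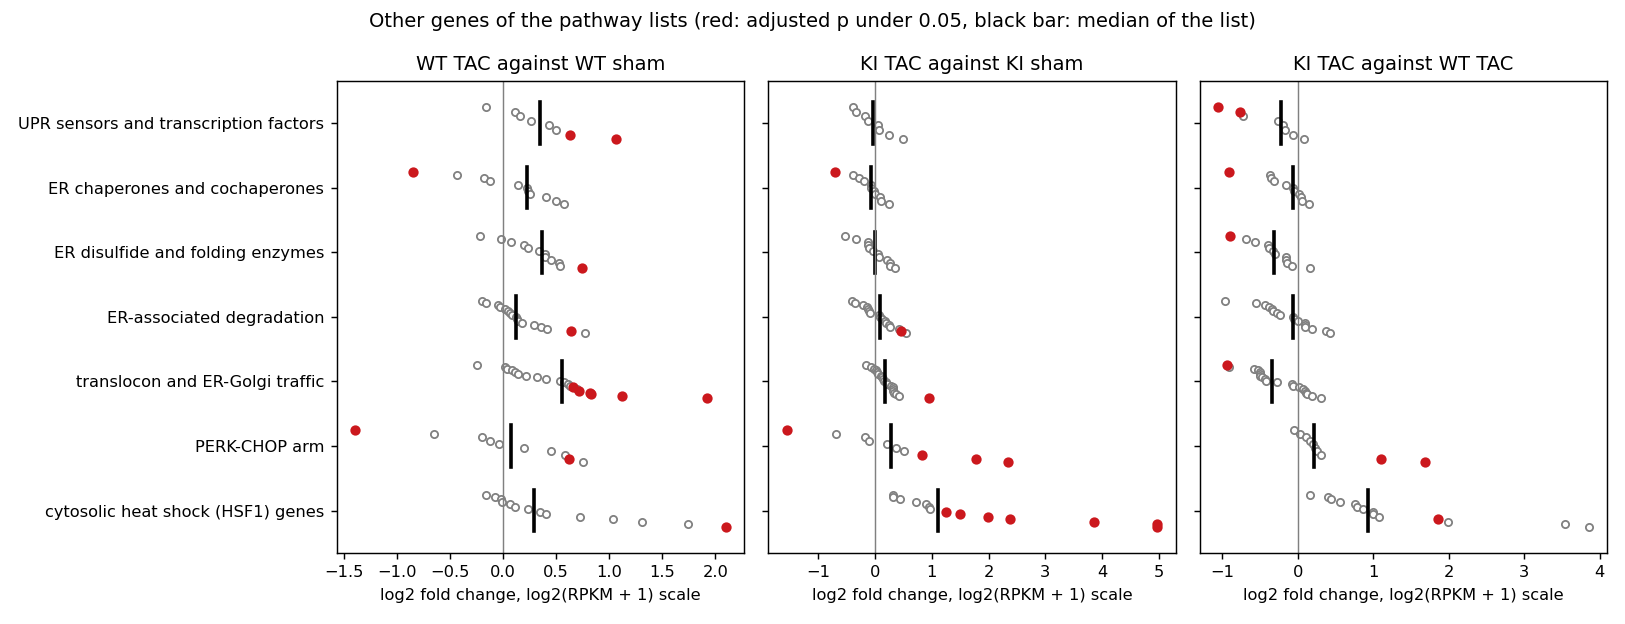
Log2 fold changes on the log2(RPKM + 1) scale of the listed genes other than the 10 members, in WT hearts after TAC (left), in KI hearts after TAC (middle) and in KI TAC against WT TAC hearts (right). Each point is a gene, red where the adjusted p passed 0.05, and black bars are list medians, which for translocon and traffic genes were 0.56, 0.17 and -0.35.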

How the data were processed

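Gene expression was measured by RNA sequencing in hearts of 12 mice. The authors trimmed reads with Trimmomatic 0.39, aligned them to GRCm38 with HISAT2 2.2.1, counted them with HTSeq 0.6.1 and used edgeR 3.18.1 and limma 3.32.10 in R 4.1.1. The sources used here do not name the unit of the deposited values, which were taken as RPKM from the values themselves: multiplied by exon length in kilobases they summed to 997702 to 1002226 per mouse, and 96.0% to 98.2% of low values were whole reads within 0.05, against 10.7% to 16.5% with a wrong step. Exon lengths were found for 13546 of 13552 genes. Whether counting used strand is not given in the sources used here. RPKM are not counts, so limma 3.58.1 in R 4.3.3, with an intensity trend, was run on log2(RPKM + 1) for genes with at least 1 RPKM in at least 3 mice, in 1 fit over 4 groups. Replicates are separate mice.

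Alternatives were a pseudocount of 0.1, no filter, quantile normalization, median-ratio scaling, only the groups compared, limma-voom on recovered reads (11236 genes), a replicate block over sham mice, and each mouse left out. Promoters came from RefSeq (GRCm38.p6). The genes and lists were chosen with earlier results of these data known. Named genes were all 10 members, at most 5 called genes per list and comparison by size of change, with others named as values or to complete a count, and the 5 most like Hspa5. Figures were drawn with matplotlib 3.10.9 in Python 3.11.15. The fits were tested on simulated data.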

Additional observations from a re-analysis of the deposited data

How the results depend on the processing

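The number of the 10 genes called moved from 4 to 1 in WT hearts after TAC, and from 3 to 0 between TAC hearts, when only the groups compared were fitted. Over all genes the calls moved from 1299 to 1194 in WT hearts and from 1242 to 216 between TAC hearts. Median-ratio scaling moved the number of the 10 called from 1 to 0 in KI hearts after TAC and from 3 to 1 between TAC hearts. The causes of these moves were not tested. Leaving out 1 mouse gave 0 to 6 calls in WT hearts, 0 to 1 in KI hearts, 0 to 4 between TAC hearts, 0 to 0 between sham hearts, 0 to 1 for the interaction and 2 to 7 over both genotypes. The 2 calls over both genotypes arose without WT sham mouse 2 or 3, WT TAC mouse 7 or KI sham mouse 3, and 3 without KI TAC mouse 6 or 7. Over all genes the interaction was called for none in limma, for 240 without WT TAC mouse 9, for 182 without KI TAC mouse 7 and for 8 without WT TAC mouse 10.

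Signs turned in small differences that did not pass the test. Hsp90b1 in KI hearts was 0.051 under quantile normalization and 0.14 under median-ratio scaling, and the interaction of Atf6 was 0.11 under median-ratio scaling. With 1 mouse left out, Atf6 ran from -0.015 to 0.35 in WT hearts and from -0.093 to 0.21 in KI hearts, where Hsp90b1 ran from -0.15 to 0.075, Manf from -0.021 to 0.20 and Sdf2l1 from -0.0038 to 0.26. Between sham hearts the ranges were -0.12 to 0.27 for Hspa5, -0.18 to 0.075 for Xbp1, -0.22 to 0.21 for Manf, -0.30 to 0.078 for Sdf2l1, -0.18 to 0.11 for Pdia4, -0.088 to 0.14 for Pdia6 and -0.47 to 0.44 for Herpud1. The interaction ran from -0.28 to 0.11 for Atf6 and from -0.10 to 0.82 for Herpud1, and Pdia4 over both genotypes from -0.032 to 0.25. Of all values with 1 mouse left out, 634 kept direction and side of the threshold, 13 passed newly, 45 no longer passed and 28 turned sign. Under the other alternatives these numbers were 332, 3, 12 and 3.

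Sham mice of both genotypes share the numbers 1, 2 and 3, but the deviations of same-numbered mice correlated at r = -0.22, -0.30 and 0.44. Between mice of different numbers r ran from -0.35 to 0.43, so the value of mice 3 was close to that of a mismatched pair (WT mouse 1 with KI mouse 2). The numbers were therefore not taken as pairs. The fit with a replicate block over sham mice called 0 of the 10, as did the fit without it. TAC mice share only the number 7 between genotypes, and sham and TAC mice of 1 genotype share none, so no other paired fit was made. The lowest values rest on 101 reads (Sdf2l1). Herpud1, with at least 2511 reads, had a larger SE after TAC in WT hearts (0.41) than Sdf2l1 (0.32), and the part of depth was not tested.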

Other observations

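The heat shock genes of the cytosol, which encode chaperones outside the ER and are switched on by HSF1, were read from a list of 14 genes, all tested. In WT hearts 1 rose after TAC (7.14%, against 6.96% of all genes), the small heat shock protein Hspb1 (2.10, limma adjusted p = 0.010), and the median was 0.29. In KI hearts 7 rose (50%, against 8.57% of all genes), none fell (against 14.7%), and the median was 1.11 against -0.10 over all genes. Hspb1 was 990 RPKM in WT TAC mouse 7, 1058 in mouse 9 and 330 in mouse 10, and 4950, 2161 and 1565 RPKM in KI TAC mice 5, 6 and 7. It was higher in KI than in WT hearts after TAC (1.86, limma adjusted p = 0.024), and its interaction was 1.75 (unadjusted p = 0.017, limma adjusted p = 0.25). The KI TAC hearts differed widely in this list. Hspa1a, an inducible Hsp70 whose reads may be split with its near-identical copy Hspa1b, was 1356, 75.1 and 4.66 RPKM in KI TAC mice 5, 6 and 7, and Dnajb1, its cochaperone, was 307, 23.5 and 11.7 RPKM. The count of 7 was 2 without KI sham mouse 3 and 12 without KI TAC mouse 7. Between TAC hearts 1 gene was higher in KI (7.14%, against 2.92% of all genes), 9 were without KI TAC mouse 7, and none was when any 1 of WT TAC mice 7 and 10 and KI TAC mice 5 and 6 was left out.

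Outside the 10 members, 10 tested genes had ERSE in their promoter window, with a median of 0.19 in WT hearts and -0.06 in KI hearts after TAC. Of these, 1 rose, Hnrnpa3 (against 6.96% of all genes), and none fell (against 4.60%) in WT hearts. In KI hearts 1 rose, again Hnrnpa3 (against 8.57%), and 3 fell (against 14.7%). For 94 tested genes with UPRE the medians were 0.08 and -0.05, against 0.04 and -0.10 over all genes. Of the 94, 11 (11.7%, against 6.96%) rose and 1 (1.06%, against 4.60%) fell in WT hearts. In KI hearts 10 (10.6%, against 8.57%) rose and 13 (13.8%, against 14.7%) fell.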
